A study of Mus musculus with 9 samples.

Results

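The genes described here are 35 enzymes, transporters and kinases of glycolysis, of lactate and pyruvate handling and of the pentose phosphate pathway, taken by symbol from a list of named genes that was drawn up with earlier results of these arrays known. The rule uses no measured value. Each was read from the brightest probe set that the array annotation assigns to that symbol alone. Of the 35 members, 30 had such a probe set, among 22180 genes that had one, and all 30 passed the filter on low signal, as did 12630 genes in all. Aldoa and Tkt were found only on probe sets shared with another gene (Aldoart1 and Mir3076), and no probe set was named here for Gpi1, Eno1 and G6pdx, so these 5 were not tested. On the shared probe sets the level of Tkt was 8.69 ± 0.27, 8.81 ± 0.10 and 8.68 ± 0.16 (SD, n = 3) and that of Aldoa with Aldoart1 was 7.11 ± 0.38, 6.94 ± 0.17 and 6.95 ± 0.28 (SD, n = 3), in the order vehicle, scrambled siRNA with IBMX/Dex and CD24 siRNA with IBMX/Dex.

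RNA came from 3T3-L1 cells, a mouse fibroblast line of committed pre-adipocytes, grown to confluence in high-glucose medium with pyruvate and held there for another 48 h. There were 3 groups of 3 arrays. The vehicle group received no IBMX or Dex; the labels do not say whether it received an siRNA. Both other groups were given 0.5 mM IBMX, a phosphodiesterase inhibitor that raises cAMP, with 1 µM dexamethasone (Dex), a synthetic glucocorticoid, for 6 h, one after a scrambled siRNA and the other after an siRNA against CD24, a surface glycoprotein encoded by Cd24a (100 nmol of either siRNA). All groups were thus growth-arrested pre-adipocytes, IBMX and Dex were never given apart, and against vehicle the inducers and a transfection cannot be told apart if vehicle cells were not transfected. The replicates are not described as separate cultures, so the p-values cover the spread among these arrays, which may be technical.

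Glycolysis splits glucose into pyruvate. Its entry is set by glucose transporters and hexokinases, and its pace largely by phosphofructokinase, which is activated by the sugar bisphosphate that the PFKFB enzymes make and remove. Pyruvate then either becomes lactate, which leaves the cell through monocarboxylate carriers, or enters mitochondria through pyruvate dehydrogenase, which the PDK kinases switch off by phosphorylation. The pentose phosphate pathway draws sugar phosphate off the top of glycolysis to make NADPH, used in fat synthesis, and ribose for nucleotides. In fat cells the glycolytic route also supplies glycerol phosphate and acetyl groups for stored lipid.

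Values are deposited log2 expression levels, so a difference of 1 is a 2-fold change, and no level of a gene is compared with that of another. Array medians lay between 6.47 and 6.56, and r between arrays of a group, over probe sets that are not independent, was 0.963 to 0.990. The pre-adipocyte markers were bright (5 of 5 named markers above the filter, with a mean level between 10.9 and 11.5 on every array), while the adipocyte genes Adipoq, Plin1, Cidec and Lep and the macrophage genes Ptprc and Adgre1 were below the filter. Other genes of these 2 lists were above it: the adipocyte genes Fabp4 (mean of 9 arrays 9.60) and Retn (6.64), and the macrophage genes Cd68 (8.26), Lyz2 (7.49) and Csf1r (6.97). Cd24a stood at 8.88, 9.92 and 9.49 with vehicle, at 11.19, 11.73 and 11.81 with scrambled siRNA and at 10.15, 10.16 and 11.72 with CD24 siRNA. It was thus 4.42-fold above vehicle after scrambled siRNA (limma adjusted p = 0.0205). After CD24 siRNA its mean was 2.37-fold above vehicle. That difference passed only with the replicate block described below (limma adjusted p = 0.124, and 0.0143 with the block). Its same-numbered differences from vehicle were uneven, at 1.27, 0.24 and 2.23, the largest for replicate 3. The Cd24a difference of -0.90 between CD24 siRNA and scrambled siRNA did not pass, with or without the block. The array labelled CD24 siRNA replicate 3 was only 0.10 below its same-numbered scrambled array, where the others were 1.04 and 1.57 below. On a second, dimmer probe set of Cd24a the same-numbered differences were -2.05, -2.03 and -0.18, the last again for replicate 3. The counts of members called in comparisons that involve CD24 siRNA are therefore given with and without the array of CD24 siRNA replicate 3. Other values that involve CD24 siRNA include that array unless stated. Arrays of the same replicate number deviated together from their group means, so each result is given from a limma fit on the 3 groups and, where the call differs, from the same fit with the replicate number as a block (adjusted p under 0.05 over all 12630 genes in both).

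Among the members, the gene for the bifunctional enzyme PFKFB4 had the largest difference from vehicle after scrambled siRNA and IBMX/Dex, rising 2.39-fold. With the replicate block 7 of 30 members (23.3%) passed in that comparison, the share also found over all genes (23.3%): Pfkfb4, Hk2, Pfkfb3, Slc16a1 and Pdha1 rose, and the kinase genes Pdk2 and Pdk4 fell. The stretches upstream of the listed start of the pair with the largest rises (Pfkfb4, Hk2) and of the kinase pair that fell (Pdk2, Pdk4) are shown, since IBMX acts through cAMP and Dex through the glucocorticoid receptor, and several glycolytic genes are known targets of hypoxia-inducible factors. They are the 250 bases before the start on the gene's own strand, from RefSeq on build GRCm38.p6: chr9:108991652-108991901 (plus strand) for Pfkfb4, chr6:82774455-82774704 (minus) for Hk2, chr11:95041372-95041621 (minus) for the first of 2 listed starts of Pdk2, and chr6:5496279-5496528 (minus) for Pdk4. Capitals mark matches, on either strand, to the short core of the cAMP response element, TGACG, the hypoxia response cores ACGTG and GCGTG, and the E-box CACGTG, which contains ACGTG on both strands.
Pfkfb4: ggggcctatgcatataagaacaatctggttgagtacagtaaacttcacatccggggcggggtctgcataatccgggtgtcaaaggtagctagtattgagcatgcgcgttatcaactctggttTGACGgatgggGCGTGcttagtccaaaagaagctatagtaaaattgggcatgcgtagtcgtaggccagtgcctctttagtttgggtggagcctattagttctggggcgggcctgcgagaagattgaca
Hk2: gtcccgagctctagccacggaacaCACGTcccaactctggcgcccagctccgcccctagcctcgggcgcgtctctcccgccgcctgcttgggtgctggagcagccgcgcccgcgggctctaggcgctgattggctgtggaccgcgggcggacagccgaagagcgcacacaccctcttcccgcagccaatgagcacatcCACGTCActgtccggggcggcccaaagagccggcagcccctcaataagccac
Pdk2: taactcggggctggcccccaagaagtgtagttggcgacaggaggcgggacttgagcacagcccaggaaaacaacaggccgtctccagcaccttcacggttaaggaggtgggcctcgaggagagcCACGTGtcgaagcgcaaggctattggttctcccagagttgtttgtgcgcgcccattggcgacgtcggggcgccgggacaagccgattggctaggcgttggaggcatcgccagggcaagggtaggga
Pdk4: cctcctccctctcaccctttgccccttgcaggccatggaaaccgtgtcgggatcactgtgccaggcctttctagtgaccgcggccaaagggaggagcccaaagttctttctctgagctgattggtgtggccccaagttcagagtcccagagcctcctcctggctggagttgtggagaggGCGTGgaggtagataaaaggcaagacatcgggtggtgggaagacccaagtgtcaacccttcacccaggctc

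The Pfkfb4 window held TGACG at -128 and GCGTG at -117 from the start. The Hk2 window held ACGTG at -226 and, overlapping each other, ACGTG at -52 and TGACG at -50, all on the opposite strand. The Pdk2 window held the E-box at -126 and the Pdk4 window GCGTG at -71. The full cAMP response element TGACGTCA and the palindromic glucocorticoid response element were in none of these 4 windows. Such short matches are common: over all 32851 listed promoter windows of this length, 17.8% held TGACG, 16.6% ACGTG, 28.2% GCGTG and 6.02% CACGTG, while 1.55% held TGACGTCA and 3 windows the glucocorticoid element. Over the 52 windows listed for the 35 members the counts were 9 (17.3%) for TGACG, 18 (34.6%) for ACGTG, 30 (57.7%) for GCGTG, 6 (11.5%) for CACGTG, 1 (1.92%, upstream of Ldha) for TGACGTCA and 0 for the glucocorticoid element. These shares were not matched for base composition, and 12 members contribute more than 1 window.

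The first comparison was IBMX/Dex after scrambled siRNA against vehicle. Of the 30 measured members 1 passed (3.33%), beside 6.94% of all genes tested. With the replicate block 7 passed (23.3%), the same share as over all genes (23.3%): 5 were higher (16.7%, against 11.9% of all genes) and 2 lower (6.67%, against 11.4%). The values of the 2 groups did not overlap for 5 members (16.7%; Pfkfb4, Pfkfb3, Pdha1, Pdk2 and Eno2) and for 25.2% of all genes. The median member difference was 0.04 (all genes 0.02), and the median size of a difference, in either direction, was 0.13 for members and 0.19 for all genes. By these counts the members were called about as often as other genes, and the largest differences lay in a few of them.

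**Figure D1:**
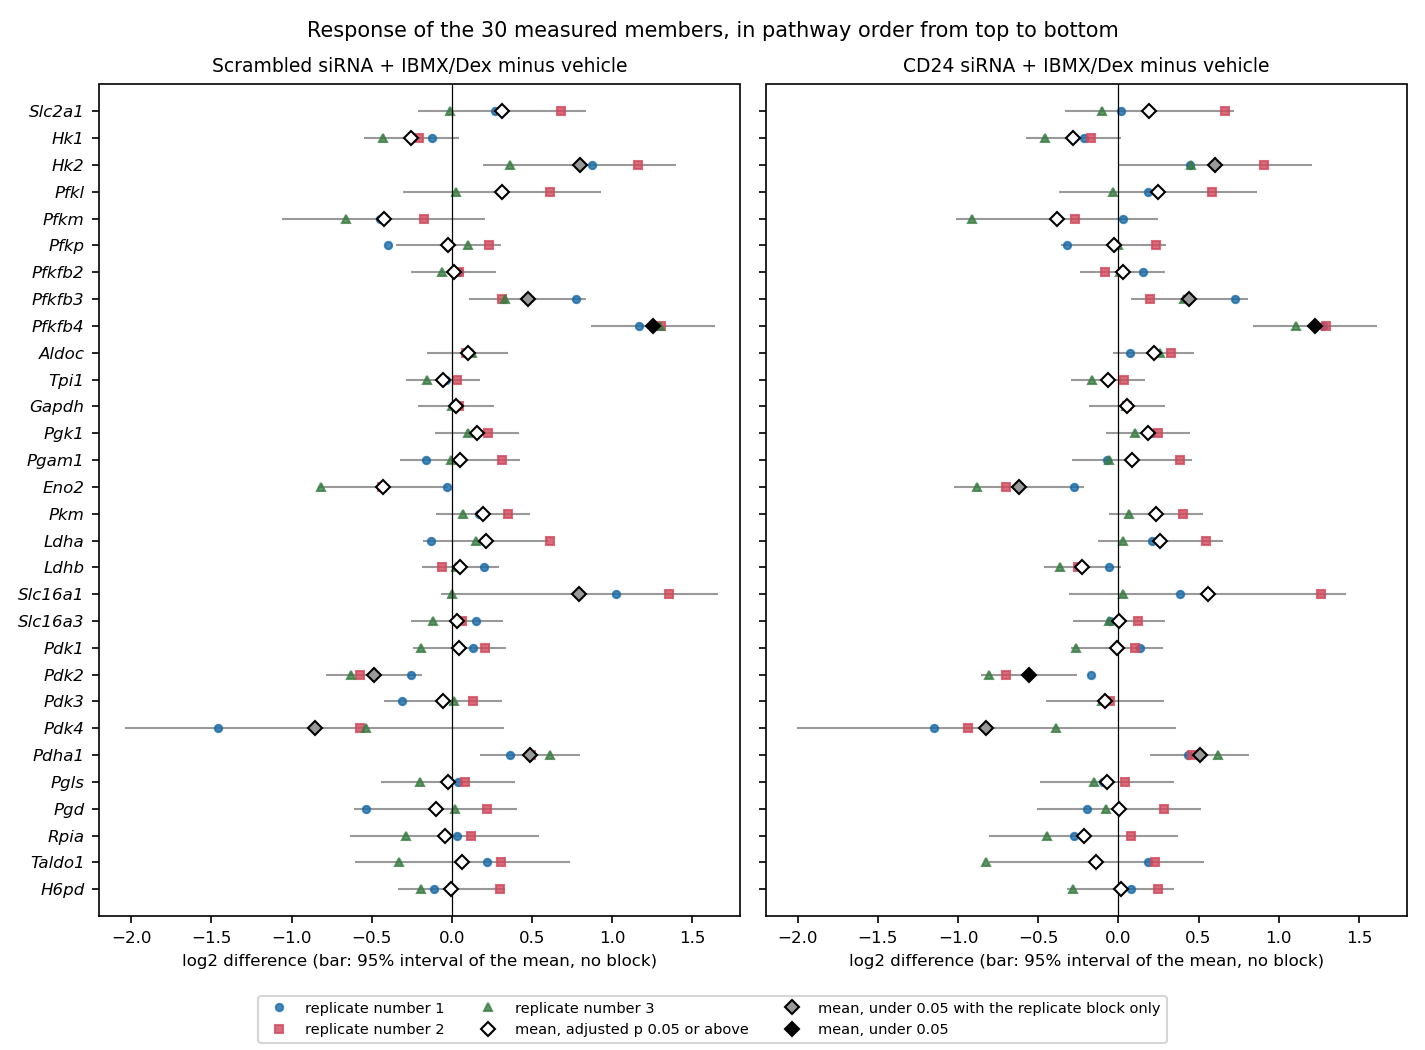
Differences of the 30 measured members from vehicle on the log2 scale, for scrambled siRNA with IBMX/Dex (left) and CD24 siRNA with IBMX/Dex (right), which share the vehicle arrays. Small symbols are the differences between arrays of the same replicate number, diamonds the mean of 3 with its 95% interval from the fit without the block; Pfkfb4 lies farthest from 0 in both panels, at 1.26 and 1.23.

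At the entry to glycolysis, Slc2a1, the basal glucose transporter, did not pass (difference 0.31 ± 0.23 SE, limma adjusted p = 0.482, and 0.161 with the block). Its vehicle arrays read 11.96, 11.16 and 12.14 and its scrambled arrays 12.23, 11.84 and 12.13, so the groups overlapped and the array of vehicle replicate 2 was the low one. Hk2, the inducible hexokinase, read 8.55, 7.70 and 8.16 with vehicle, 9.43, 8.87 and 8.52 with scrambled siRNA and IBMX/Dex, and 9.0, 8.62 and 8.62 with CD24 siRNA and IBMX/Dex. Each treated array was above its same-numbered vehicle array, but the lowest scrambled array lay just under the highest vehicle array. Its difference was 0.80 ± 0.27 SE (1.74-fold), which did not pass without the block (adjusted p = 0.113) and passed with it (adjusted p = 0.00499), also with any array left out (adjusted p at most 0.0337). Hk1, the housekeeping isozyme, differed by -0.25 (adjusted p = 0.295, and 0.0989 with the block), with all 3 same-numbered differences negative.

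Phosphofructokinase itself did not pass for any isozyme. The same-numbered differences of Pfkl, the liver-type subunit, were 0.30, 0.61 and 0.03, those of Pfkm, the muscle-type subunit, were -0.45, -0.17 and -0.66, and those of the platelet-type Pfkp were -0.40, 0.23 and 0.10. The regulators above it differed from each other. Pfkfb4 read 7.84, 7.43 and 7.88 with vehicle, 9.0, 8.73 and 9.18 with scrambled siRNA and IBMX/Dex, and 9.12, 8.73 and 8.99 with CD24 siRNA and IBMX/Dex. All treated arrays were at 8.73 or above, and the highest vehicle array was at 7.88. The difference was 1.26 ± 0.17 SE (2.39-fold, limma adjusted p = 0.00427, and 4.65e-05 with the block), and it passed under all 16 alternatives without the block (values between 1.11 and 1.38).

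Pfkfb3, the isozyme with the strongest bias towards making the activator, read 6.54, 6.62 and 6.84 with vehicle and 7.31, 6.93 and 7.17 with scrambled siRNA and IBMX/Dex. Those groups did not overlap, although vehicle replicate 3 and scrambled replicate 2 came close. The difference of 0.47 ± 0.16 SE (1.39-fold) had an adjusted p of 0.12, and 0.0202 with the block; the blocked call was lost without vehicle replicate 1 (adjusted p = 0.0894), scrambled replicate 1 (0.0944) or scrambled replicate 2 (0.064). Pfkfb2, the isozyme of heart, differed by 0.01, with a 95% interval from -0.26 to 0.28.

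**Figure D2:**
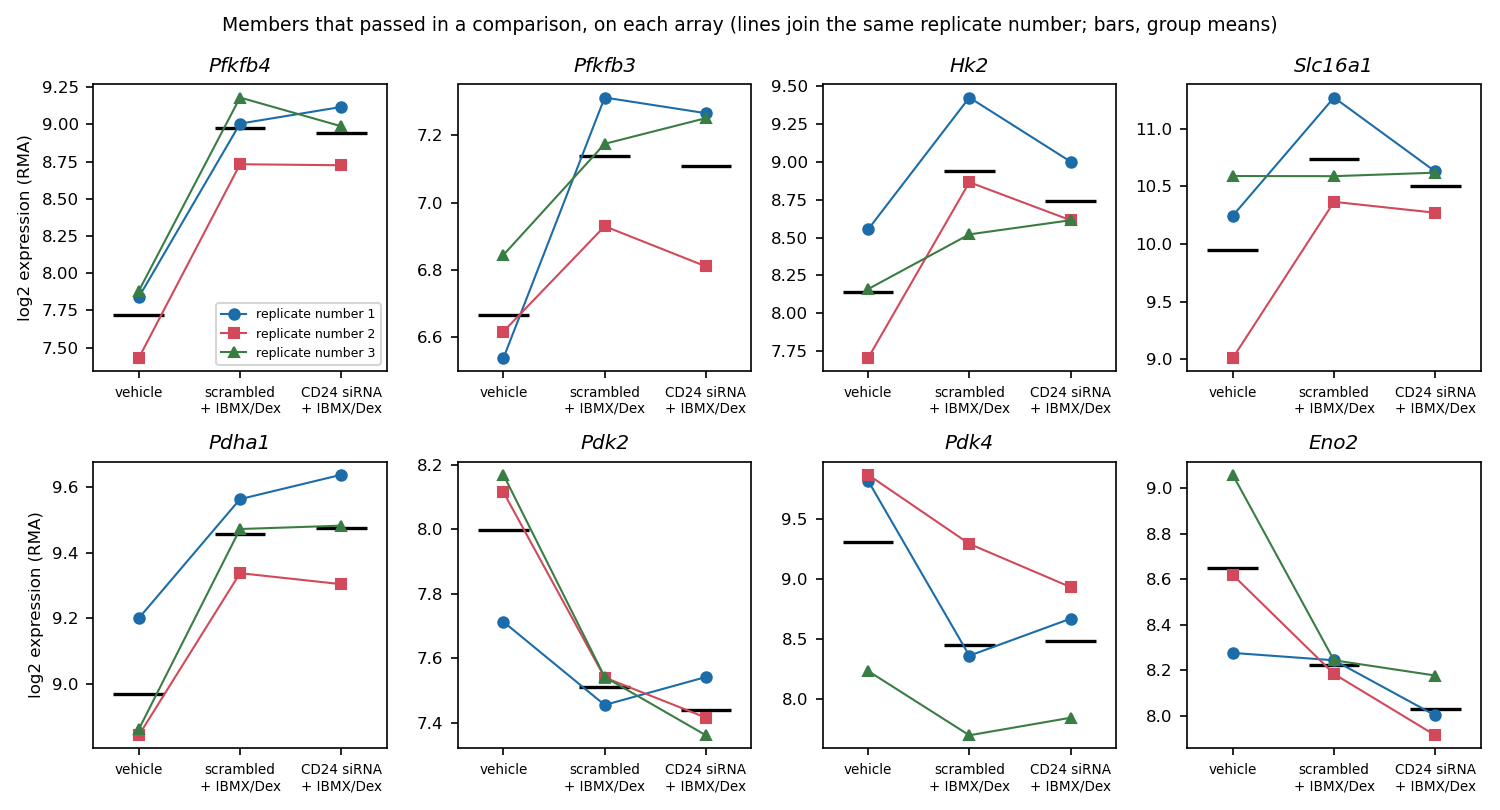
Log2 expression of the 8 members that passed against vehicle with or without the replicate block, on each of the 9 arrays, with its own axis for each gene. Lines join arrays of the same replicate number and bars are group means; for Pfkfb4 and Pdha1 the vehicle arrays lie below all treated arrays, while for Slc16a1 and Pdk4 the distance between replicate numbers is as wide as that between groups.

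In lower glycolysis 0 of 7 measured members passed after scrambled siRNA, with or without the block. Aldoc, an aldolase that yields triose phosphates, and Tpi1, Gapdh, Pgk1, Pgam1 and Pkm, which act on them down to pyruvate, had differences between -0.05 and 0.20. A second, dimmer probe set of Pgam1 lay outside that range, at -0.28. Tpi1 and Gapdh had the narrowest ranges over the 9 arrays, 0.27 and 0.24. Gapdh was at 13.51 ± 0.10, 13.53 ± 0.09 and 13.56 ± 0.09 (SD, n = 3) in vehicle, scrambled and CD24 siRNA arrays. Gapdh has near-identical pseudogene copies on the array, and its signal may include theirs. Eno2, the neuronal-type enolase, read 8.28, 8.62 and 9.06 with vehicle, 8.24, 8.18 and 8.24 with scrambled siRNA and IBMX/Dex, and 8.00, 7.92 and 8.18 with CD24 siRNA and IBMX/Dex. The vehicle arrays were spread widely and all lay above the treated arrays, by little for replicate 1. The difference of -0.43 ± 0.18 SE after scrambled siRNA did not pass (adjusted p = 0.198, and 0.0548 with the block).

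Of the 4 genes of lactate handling, the enzyme genes Ldha and Ldhb differed by 0.21 and 0.05 and the exporter gene Slc16a3 by 0.03, and none of these passed. A brighter probe set that Slc16a3 shares with Csnk1d was not tested. It was at 9.81 ± 0.05, 10.06 ± 0.09 and 10.02 ± 0.02 (SD, n = 3) in vehicle, scrambled and CD24 siRNA arrays. Slc16a1, the carrier that moves lactate and pyruvate in either direction, read 10.25, 9.01 and 10.59 with vehicle, 11.27, 10.37 and 10.59 with scrambled siRNA and IBMX/Dex, and 10.63, 10.27 and 10.62 with CD24 siRNA and IBMX/Dex. The scrambled arrays of replicates 1 and 2 were well above their vehicle arrays and that of replicate 3 was level with it (differences 1.03, 1.36 and -0.00). The mean difference of 0.79 ± 0.38 SE (1.73-fold) passed with the block alone (adjusted p = 0.262, and 0.0381 with it). The blocked call was lost without vehicle replicate 1 (adjusted p = 0.115), vehicle replicate 2 (0.132), scrambled replicate 1 (0.172) or scrambled replicate 2 (0.14), and the difference was 0.48 without vehicle replicate 2.

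At pyruvate dehydrogenase, with the block, the subunit gene Pdha1 rose, the kinase genes Pdk2 and Pdk4 fell, and Pdk1 and Pdk3 did not pass. Pdha1, the phosphorylated subunit of the complex, read 9.20, 8.84 and 8.86 with vehicle, 9.56, 9.34 and 9.47 with scrambled siRNA and IBMX/Dex, and 9.64, 9.30 and 9.48 with CD24 siRNA and IBMX/Dex. All treated arrays lay above all vehicle arrays. Its difference of 0.49 ± 0.14 SE (1.40-fold) did not pass without the block (adjusted p = 0.0675) and passed with it (adjusted p = 0.00587), also with any array left out (adjusted p at most 0.0457).

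Pdk2, a kinase that inactivates the complex, read 7.71, 8.11 and 8.17 with vehicle, 7.46, 7.54 and 7.54 with scrambled siRNA and IBMX/Dex, and 7.54, 7.42 and 7.36 with CD24 siRNA and IBMX/Dex. All vehicle arrays were above all treated arrays, with vehicle replicate 1 the nearest to them. The scrambled difference of -0.49 ± 0.13 SE had an adjusted p of 0.0629, and 0.0212 with the block. The blocked call was lost when vehicle replicate 2 or 3 (adjusted p = 0.0678 and 0.0768) or scrambled replicate 1, 2 or 3 (0.0642, 0.0783 and 0.0864) was left out.

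Pdk4, the kinase induced in fasting and by glucocorticoids in several tissues, read 9.82, 9.87 and 8.24 with vehicle, 8.36, 9.29 and 7.70 with scrambled siRNA and IBMX/Dex, and 8.67, 8.93 and 7.85 with CD24 siRNA and IBMX/Dex. Each treated array was below its same-numbered vehicle array, but replicate 3 lay so far below the others that the groups overlapped. The difference of -0.86 ± 0.52 SE (1.81-fold lower) passed with the block alone (adjusted p = 0.379, and 0.0094 with it), also with any array left out (adjusted p at most 0.0461). Pdk1 and Pdk3 differed by 0.05 and -0.05 and did not pass.

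None of the 5 measured pentose phosphate genes passed against vehicle, with or without the block. In the oxidative branch, which makes NADPH, Pgls, Pgd and H6pd (the enzyme of the endoplasmic reticulum) differed by -0.03, -0.10 and -0.00. A second, dimmer probe set of Pgls differed by -0.26 after scrambled siRNA and by -0.45 after CD24 siRNA, so its value depends on the probe set. In the non-oxidative branch, which links ribose to glycolysis, Rpia and Taldo1 differed by -0.04 and 0.07. The 95% intervals were wide for some: that of Taldo1 ran from -0.60 to 0.74, which includes a change of over 1.5-fold in either direction, and that of H6pd from -0.33 to 0.33.

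The second comparison was IBMX/Dex after CD24 siRNA against the same vehicle arrays, so it is no independent repeat of the first. Of the 30 members 2 passed (6.67%), Pfkfb4 and Pdk2, beside 6.65% of all genes. With the block 7 passed (23.3%, against 22.4% of all genes): Hk2, Pfkfb3, Pfkfb4 and Pdha1 were higher (13.3%, against 10.4%) and Eno2, Pdk2 and Pdk4 lower (10.0%, against 12.1%). With the array labelled CD24 siRNA replicate 3 left out, 1 member passed without the block (Pfkfb4) and 3 with it (Pfkfb4, Pdk4 and Pdha1). The groups did not overlap for 8 members (26.7%; Aldoc, Eno2, Hk1, Hk2, Ldhb, Pdha1, Pdk2 and Pfkfb4), and for 25.8% of all genes. The median member difference was 0.01, beside 0.02 over all genes.

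Pfkfb4 was 2.34-fold above vehicle in that comparison (1.23 ± 0.17 SE, limma adjusted p = 0.0051, and 1.20 with adjusted p = 0.0287 without CD24 siRNA replicate 3). Pdk2 was 1.47-fold lower (-0.56 ± 0.13 SE, adjusted p = 0.0401, and 0.0122 with the block). Its call without the block was lost in 10 of 15 alternatives, among them leaving out vehicle replicate 2 or 3 (adjusted p = 0.0962 and 0.12), any scrambled array (0.0513, 0.0627 and 0.0687) or any CD24 siRNA array (0.0836, 0.12 and 0.126). With the block it was lost without CD24 siRNA replicate 2 (0.063) or 3 (0.0618). Pdha1 was 1.42-fold higher (0.51 ± 0.14 SE, adjusted p = 0.0632, and 0.00522 with the block), and 0.48 higher without CD24 siRNA replicate 3 (0.0275 with the block).

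The other members that passed with the block alone had differences of 0.60 for Hk2 (adjusted p = 0.224, and 0.0175 with the block), 0.44 for Pfkfb3 (0.144 and 0.0278), -0.82 for Pdk4 (0.407 and 0.0114) and -0.62 for Eno2 (0.0759 and 0.0128). Each of these depended on single arrays. The blocked call of Hk2 was lost without vehicle replicate 1 or 2 (0.0547 and 0.057) or CD24 siRNA replicate 2 or 3 (0.0804 and 0.0687), and that of Pfkfb3 without vehicle replicate 1 (0.119) or CD24 siRNA replicate 1 or 3 (0.119 and 0.0928). That of Pdk4 was lost without CD24 siRNA replicate 2 (0.0561), and that of Eno2 without CD24 siRNA replicate 2 or 3 (0.0585 and 0.0547). Slc16a1 was 0.56 higher and did not pass (0.445, and 0.124 with the block).

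The third comparison was CD24 siRNA against scrambled siRNA with IBMX/Dex in both. Cd24a itself did not pass in it, so it cannot decide whether lowering CD24 altered the response. Of the members 0 passed and of all genes 0 (0%), in limma without and with the block (0% again). At an unadjusted p under 0.05, 30 of the 12630 genes and 1 member passed without the block, and 219 genes and 1 member with it. The 2 groups did not overlap for 2 members (6.67%), Ldhb and Eno2, and for 2.41% of all genes. Member differences ran from -0.28 for Ldhb to 0.12 for Aldoc, with a median of -0.03 (all genes -0.01).

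Ldhb, the lactate dehydrogenase subunit that favours turning lactate into pyruvate, was that 1 member. It read 7.59, 7.39 and 7.60 with scrambled siRNA and 7.34, 7.20 and 7.21 with CD24 siRNA, and 7.39, 7.45 and 7.57 with vehicle. Each CD24 siRNA array was below every scrambled array and every vehicle array. The difference was -0.28 (95% interval -0.52 to -0.04, limma unadjusted p = 0.0278, adjusted p = 1, and 0.0202 unadjusted with the block), and the same-numbered differences were -0.25, -0.19 and -0.39. The last of these belongs to the array labelled CD24 siRNA replicate 3, on which Cd24a was only 0.10 below its scrambled array; without that array the difference was -0.26. Eno2 differed by -0.19, with same-numbered differences of -0.24, -0.27 and -0.07.

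For the 7 members that passed in the first comparison, all but Pfkfb4 with the block alone, the intervals bound how much the CD24 siRNA arrays could differ from scrambled. That of Pfkfb4 was -0.42 to 0.36 around -0.03, that of Pfkfb3 -0.39 to 0.33, that of Pdha1 -0.29 to 0.33 and that of Pdk2 -0.37 to 0.23. Those of Hk2 (-0.80 to 0.41), Slc16a1 (-1.10 to 0.63) and Pdk4 (-1.15 to 1.21) were wider and include differences of 1.5-fold or more. With the block they were -0.52 to 0.14 for Hk2, -0.77 to 0.30 for Slc16a1 and -0.38 to 0.44 for Pdk4, of which only that of Slc16a1 includes a 1.5-fold difference. With the array labelled CD24 siRNA replicate 3 left out, member differences ran from -0.29 for Slc16a1 to 0.35 for Pdk4 without the block and from -0.23 for Hk2 to 0.25 for Pfkm with it, and 0 passed in either fit.

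**Figure D3:**
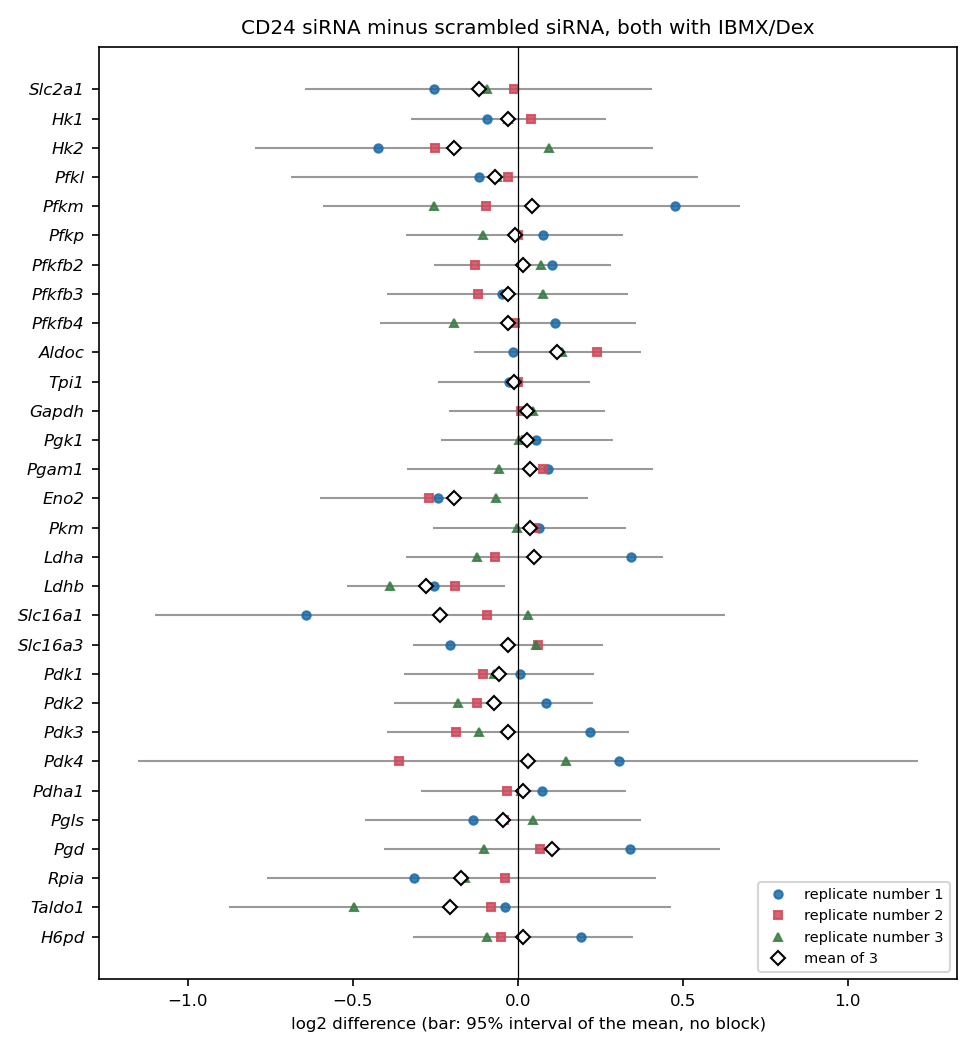
Difference between CD24 siRNA and scrambled siRNA arrays, both with IBMX/Dex, for the 30 measured members on the log2 scale. Small symbols are the same-numbered differences, diamonds their mean and bars the 95% interval from the fit without the block; the interval of Ldhb, from -0.52 to -0.04, is the only one of the 30 that does not include 0, and no member passed after adjustment.

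Across the 9 arrays, the members varied more with the replicate number than with the group. Split by sums of squares, the median share by group was 22.1% for the members and 28.3% for all genes tested, and the share by replicate number was 49.0% and 36.2%. The replicate number took the larger share for 21 of 30 members (70.0%), and for 55.2% of all genes. For 19 members (63.3%) the mean of the arrays numbered 2 was the lowest, for 8 that of number 1 and for 3 that of number 3, while over all genes number 2 was lowest for 37.6%. These shares describe the arrays and were not tested, and genes are not independent.

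The group took most of the variation of Pfkfb4 (91.0%), Pdk2 (79.1%) and Pdha1 (75.3%), and also of Ldhb (69.7%) and Eno2 (63.6%). It took a smaller majority of the variation of Pfkfb3 (61.8%), Hk2 (54.2%) and Hk1 (51.0%). The largest shares by replicate number were those of Gapdh (91.8%, over a total range of 0.24), Pgls (90.8%) and Rpia (81.6%). Pdk4 was split, with 64.9% by number and 27.9% by group, as its arrays numbered 3 were low in every group. The group took the smallest shares of the variation of Pfkp and H6pd (0.757% and 0.216%), and the replicate number took 31.5% and 43.7%.

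**Figure D4:**
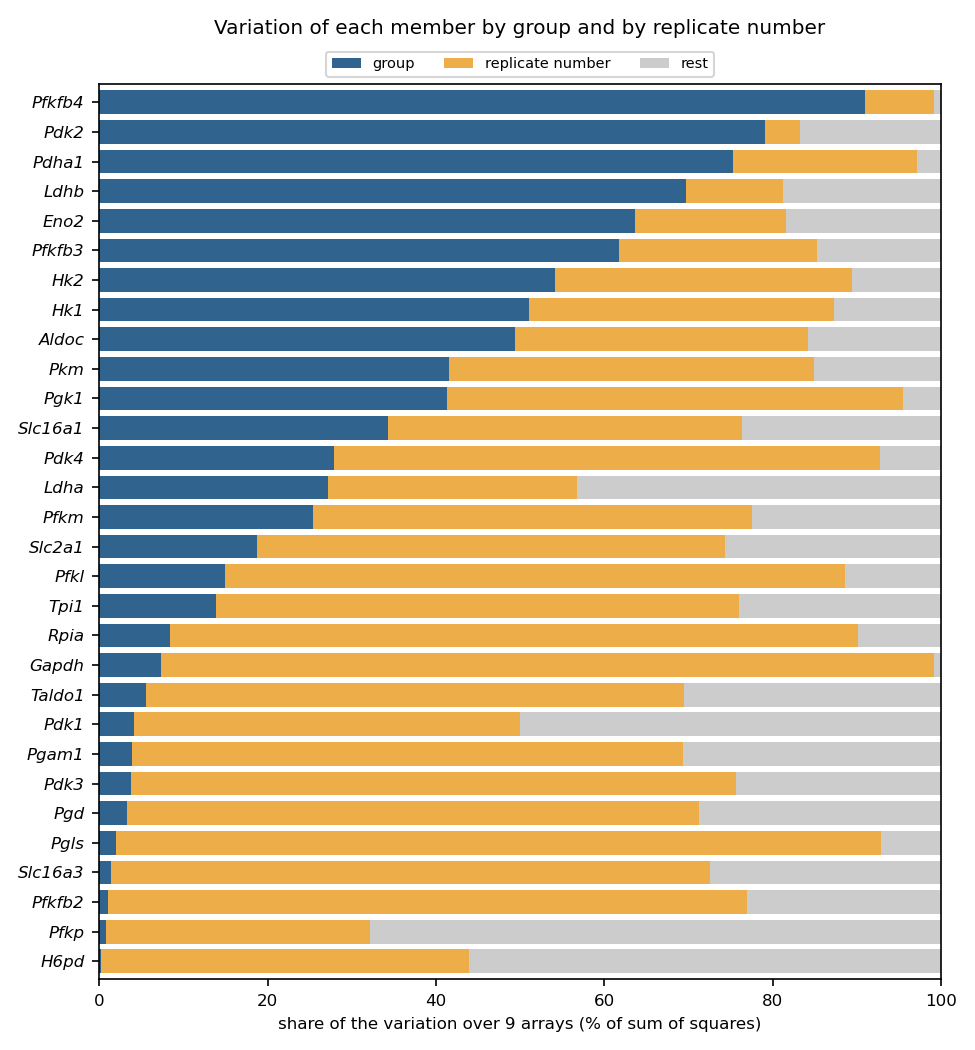
Share of each measured member's variation over 9 arrays, in percent of the sum of squares, that falls to the 3 groups, to the 3 replicate numbers and to the rest, in order of the group share. Pfkfb4 heads the order with 91.0% by group; 21 of the 30 members have a larger share by replicate number than by group.

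The neighbouring parts of the pathway were read from 7 further gene lists. Of all genes tested, 6.94% passed after scrambled siRNA and 6.65% after CD24 siRNA. With the block these shares were 23.3% and 22.4%. Of 10 tested genes on a list of other transporters, isozymes and related genes, 0 passed against vehicle in either comparison. With the block, after scrambled siRNA, Adpgk (the ADP-dependent glucokinase) and Tigar (a phosphatase that lowers the activator of phosphofructokinase) were higher by 0.54 and 0.29. Pgam5, which despite its name is not a glycolytic mutase, was higher by 0.45. Eno3, the muscle enolase, was lower, with a difference of -0.46. After CD24 siRNA Adpgk alone passed with the block, at 0.62. Slc2a4, the insulin-responsive transporter, was among the 10 named genes of that list below the filter. Of 9 genes for pyruvate entry into mitochondria 0 passed without the block and 2 with it in each comparison (Dld and Pcx after scrambled siRNA, Dld and Pdhb after CD24 siRNA, by 0.30 to 0.45). Of 17 genes of the tricarboxylic acid cycle 0 passed in any of the 3 comparisons with or without the block, Idh3a being the nearest (0.44, adjusted p = 0.165, and 0.0522 with the block).

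Of 13 tested other pentose phosphate and NADPH genes, 0 passed after scrambled siRNA and 1 after CD24 siRNA, Idh1, the cytosolic NADP-dependent isocitrate dehydrogenase. It read 10.51, 11.17 and 11.28 with vehicle, 9.58, 10.14 and 10.29 with scrambled siRNA and IBMX/Dex, and 9.55, 9.97 and 10.05 with CD24 siRNA and IBMX/Dex. Every treated array was below every vehicle array. Its difference was -0.98 ± 0.25 SE after scrambled siRNA (limma adjusted p = 0.0509, and 0.000185 with the block) and -1.13 ± 0.25 SE after CD24 siRNA (adjusted p = 0.0327). The last call was lost without vehicle replicate 2 or 3 (adjusted p = 0.0846 and 0.105), scrambled replicate 2 (0.0509) or any CD24 siRNA array (0.107, 0.0833 and 0.0766). With the block 3 genes of the list were higher and 4 lower in each comparison. Of all genes, 11.9% were higher and 11.4% lower after scrambled siRNA, and 10.4% and 12.1% after CD24 siRNA. After scrambled siRNA the 3 higher genes were Rpe, Prps1 and Idh2, and the 4 lower ones Me1 (malic enzyme), Idh1, Nnt and Nadk. Of 15 genes of glycogen storage and gluconeogenesis 0 passed without the block; with it 3 were higher (Pgm2, Pgm2l1, Pygm) and 3 lower (Pck2, Pygb, Gyg) after scrambled siRNA, and 1 higher and 3 lower after CD24 siRNA.

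Among 21 tested regulators of glycolysis, 2 rose after scrambled siRNA and 1 after CD24 siRNA. Epas1, which encodes the hypoxia-inducible factor HIF-2α, was higher by 1.04 ± 0.25 SE after scrambled siRNA (2.05-fold, limma adjusted p = 0.0432) and by 0.79 after CD24 siRNA (adjusted p = 0.105, and 0.00995 with the block). The first of these calls was lost without any of the vehicle arrays (adjusted p = 0.0524, 0.117 and 0.109), any of the scrambled arrays (0.121, 0.109 and 0.0725) or CD24 siRNA replicate 3 (0.064). Egln2, a prolyl hydroxylase that marks these factors for breakdown, was higher by 0.81 after scrambled siRNA (adjusted p = 0.0163) and by 0.65 after CD24 siRNA (0.0376). Its call after scrambled siRNA held with any array left out. Its call after CD24 siRNA was lost without any vehicle array (0.0587, 0.0905 and 0.0696), scrambled replicate 2 or 3 (0.0567 and 0.0564) or any CD24 siRNA array (0.119, 0.0529 and 0.124). With the block 6 regulators were higher and 2 lower after scrambled siRNA, beside 11.9% and 11.4% of all genes. After CD24 siRNA 5 were higher and 2 lower, beside 10.4% and 12.1% of all genes. The 6 higher after scrambled siRNA were Epas1, Egln2, Hif1a (0.57), Myc (1.12), Mxi1 (0.36) and Mlxip (0.43). Hif1a and Myc, activators of glycolytic genes, passed with the block alone (adjusted p = 0.172 and 0.0629, and 0.0191 and 0.00139 with it). So did Mxi1 (0.191, and 0.0445 with it) and Mlxip (0.0723 and 0.00918). Txnip, which restrains glucose uptake, was lower in that comparison (-0.50, adjusted p = 0.0551, and 0.00809 with the block). The other lower gene was Ppargc1a (-0.44, adjusted p = 0.379, and 0.0231 with the block).

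Of 11 tested hypoxia response genes outside glycolysis, 1 rose in each comparison with vehicle, where 6.94% and 6.65% of all genes were called. With the block 5 were higher after scrambled siRNA and 4 after CD24 siRNA, beside 11.9% and 10.4% of all genes, and 0 were lower. Vegfa, the angiogenic growth factor, read 9.69, 9.22 and 10.05 with vehicle, 11.24, 11.14 and 11.50 with scrambled siRNA and IBMX/Dex, and 11.10, 11.15 and 11.30 with CD24 siRNA and IBMX/Dex. It was 3.12-fold higher after scrambled siRNA (1.64 ± 0.20 SE, limma adjusted p = 0.0024) and 2.89-fold higher after CD24 siRNA (adjusted p = 0.00355), with no overlap of treated and vehicle arrays. Plod2, Ddit4, Higd1a and Ndrg1 were higher with the block after scrambled siRNA, by 1.55, 1.25, 1.00 and 0.69. The median difference of the 11 genes was 0.29 after scrambled siRNA and 0.19 after CD24 siRNA, and that of the 21 regulators 0.23 and 0.21, beside 0.02 over all genes in both comparisons. None of the 7 lists had a gene that passed between CD24 siRNA and scrambled siRNA.

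Markers of other cell types were mostly dim, and some markers differed between treated and vehicle arrays. The mean level over the 5 pre-adipocyte markers was between 11.34 and 11.50 on vehicle arrays, 10.96 and 11.10 on scrambled arrays, and 10.92 and 11.13 on CD24 siRNA arrays, and Pdgfra among them fell in both comparisons, from 11.96 with vehicle to 10.92 and 10.85 (adjusted p = 0.0185 and 0.016). Of 6 mature adipocyte markers 2 were above the filter (mean of the list 6.44 to 6.66, 6.48 to 6.72 and 6.41 to 6.71 in the 3 groups), and neither Fabp4 nor Retn passed. Of 5 macrophage markers 3 were above the filter (6.44 to 6.89, 6.45 to 6.66 and 6.56 to 6.90), of 6 muscle markers 3 (6.29 to 6.64, 6.26 to 6.56 and 6.41 to 6.47), and 1 each of 4 endothelial and 4 epithelial ones. The intermediate filament gene Des fell in both comparisons, from 8.08 to 7.38 and 7.37, while Myh1, Myh4 and Ckm were below the filter. With the block Col1a1, Col3a1 and Lyz2 were also lower after scrambled siRNA, and Col3a1 after CD24 siRNA. The part of these shifts in the member values was not tested, and fewer cells of a kind and less RNA per cell cannot be told apart in such samples.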

How the data were processed

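The deposited log2 values were made by the authors with RMA and the oligo package, per the submitters' processing notes; their versions, the genome build and which arrays were normalized together were not given in the sources used here. After RMA the arrays have nearly equal distributions, and differences of dim probe sets are compressed. Of 41345 probe sets, 23521 had 1 gene symbol in the platform annotation, 1814 several and 16010 none named here; the last 2 kinds were not tested. The brightest probe set per gene was used, and the 12630 of 22180 genes with at least 3 arrays at or above 6.51, the overall median, were tested.

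Titles gave each array's group and replicate number. Differences were fitted with limma 3.58.1 in R 4.3.3 (lmFit, eBayes, 9 arrays, 3 group means, two-sided), with Benjamini-Hochberg adjustment over all genes tested in each of 3 comparisons and a threshold of 0.05; the fit was checked on simulated data. The titles' replicate numbers were taken to pair the samples, because deviations from group means correlated at 0.377 to 0.732 between same-numbered arrays, against at most 0.116 otherwise, and 9 of 9 arrays matched their own number best. The fit with the number as a block is printed where it differs. Values on every array are given for members that passed with or without the block; from each further list, genes that passed or had the smallest p were named. The members, lists and markers were chosen with earlier results of these data known. Alternatives were the block, leaving out each array, other filters, quantile normalization, median centring, the mean or second brightest probe set of a gene, an intensity trend with robust estimation, and fitting 2 groups alone. Figures were drawn with matplotlib 3.10.9.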

Additional observations from a re-analysis of the deposited data

How the results depend on the processing

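The number of arrays limits these results: the 95% interval of a member's difference extended a median of 0.37 log2 units to either side and up to 1.18, and RMA signals of dim probe sets are compressed. Members called against vehicle after scrambled siRNA numbered 1, and 7 with the replicate block, 2 with quantile normalization (Pdk2 added), 1 to 3 with each array left out, and 4 to 8 with the block and each array left out. After CD24 siRNA they numbered 2, and 7 with the block, 1 with no filter, with the filter at the 75th percentile (8.07, which leaves Pdk2 out) or with only the 2 groups compared, 1 to 4 with each array left out and 3 to 8 with the block as well, 3 without CD24 siRNA replicate 3. Without vehicle replicate 1 the counts without the block were 3 and 4. Between CD24 siRNA and scrambled siRNA 0 members passed in every setting run. All genes called numbered 876 and 840, and 2942 and 2831 with the block, 313 to 852 and 321 to 857 with each array left out, and 389 and 461 with only the 2 groups compared.

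For the further lists, in the order other isozymes, pyruvate entry, pentose phosphate and NADPH, glycogen storage and gluconeogenesis, regulators, and hypoxia response, the block gave 4, 2, 7, 6, 8 and 5 calls after scrambled siRNA and 1, 2, 7, 4, 7 and 4 after CD24 siRNA. With the block and without CD24 siRNA replicate 3 these were 3, 0, 7, 6, 7 and 5, and 1, 0, 3, 1, 3 and 4. With each array left out, without the block, they ranged from 0 to 1, 0 to 1, 0 to 1, 0 to 0, 1 to 2 and 1 to 3 after scrambled siRNA, and from 0 to 1, 0 to 1, 0 to 1, 0 to 0, 0 to 1 and 1 to 1 after CD24 siRNA; the tricarboxylic acid cycle list ranged from 0 to 1 in both. The median member differences moved by less than the spread between replicate numbers under the alternatives run, and no called member changed direction. These list alternatives, and the block with an array left out, were chosen after seeing the data; the causes were not tested.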
